A study of Rattus norvegicus with 18 samples.

Results

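The genes described here are 36 interferon-stimulated antiviral genes, chosen by gene symbol from the 33898 genes of a count table of cultured rat nucleus pulposus cells. The genes and the tests were chosen with earlier results of these data known. All 36 symbols were found, and 35 of them had enough counts to be among the 14184 genes tested. Nucleus pulposus cells, from the gelatinous core of the intervertebral disc, were taken from Sprague Dawley rats aged 8 weeks. For 24 hours they were given pyridostatin (PDS in the labels), Phen-DC3 or Braco-19. These ligands hold together G-quadruplexes, four-stranded folds that guanine-rich DNA or RNA can form. RNA was sequenced from 6 groups of 3 libraries: PDS, Phen-DC3, Braco-19, and a control group for each. PDS and Phen-DC3 are named in the titles of their controls, while the control group whose titles name no compound was set against Braco-19 by elimination. The labels give neither the doses nor what the controls received. The study describes the libraries as biological repeats. The labels do not tie them to separate cultures or animals, so p-values measure differences against the spread between these libraries, which may be technical.

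Interferons are secreted proteins that warn cells of infection. A type I interferon binds the receptor IFNAR1/IFNAR2, the kinases JAK1 and TYK2 then phosphorylate STAT2, and this joins IRF9 in the complex ISGF3, which binds interferon-stimulated response elements (ISREs) in promoters. The genes switched on this way encode sensors of foreign RNA, proteins that block translation or destroy RNA, the ubiquitin-like protein ISG15 and its enzymes, and factors such as IRF7 that amplify the response. The same elements can be bound by IRF3 or IRF7 without any interferon outside the cell.

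Promoter sequences are shown first, since the ISRE is what defines this group in textbooks. RefSeq (build GRCr8) gave a promoter, 250 bases before and 50 after the annotated start, for 26 of the 36 genes by symbol. The core of the ISRE was searched on both strands as the letters GAAA, then any 2 bases, then GAAA. It occurred in 16 of the 26 promoters (61.5%), against 3.92% of all 33465 rat promoters of the same length. The longer form, the same core followed by CT, occurred in 8 of 26 (30.8%), against 0.278% of all. The lines below give the core in capitals, on either strand, with 15 flanking bases on each side, for some of the 16 genes. Every gene with a core that rose under PDS is printed, so the lines do not show the share that rose. Parp12, Dtx3l, Bst2, Xaf1, Ifi44 and Ifi27 also held a core and are not printed. None of these was called under PDS. Apol9a, Irf7 and Ifit3 were raised by PDS, and Ifih1 was lowered by Phen-DC3.
Apol9a (chr7:111028255-111028300, minus strand): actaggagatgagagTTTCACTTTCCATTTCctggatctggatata
Irf7 (chr1:205800068-205800107, minus strand): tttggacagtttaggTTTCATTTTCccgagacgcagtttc
Ifit3 (chr1:241527267-241527306, plus strand): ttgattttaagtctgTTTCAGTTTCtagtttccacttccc
Oasl2 (chr12:47383312-47383351, minus strand): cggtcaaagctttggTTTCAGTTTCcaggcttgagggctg
Rsad2 (chr6:48788243-48788282, minus strand): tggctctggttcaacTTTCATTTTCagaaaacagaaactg
Isg20 (chr1:142239952-142239991, plus strand): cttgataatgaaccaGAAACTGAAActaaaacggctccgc
Oas1a (chr12:41330410-41330455, plus strand): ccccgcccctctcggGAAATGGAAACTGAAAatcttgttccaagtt
Parp14 (chr11:78408043-78408082, plus strand): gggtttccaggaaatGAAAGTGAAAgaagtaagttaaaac
Ifih1 (chr3:67684003-67684042, minus strand): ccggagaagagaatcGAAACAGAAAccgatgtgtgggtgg
Eif2ak2 (chr6:21941123-21941162, plus strand): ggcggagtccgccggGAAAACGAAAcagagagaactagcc
In Apol9a and Oas1a the capitals cover 2 overlapping matches. Each sequence reads along the strand of its gene. Of 21 core matches in the 26 promoters, 14 lay within 100 bases before the start, in 12 genes.

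**Figure D1:**
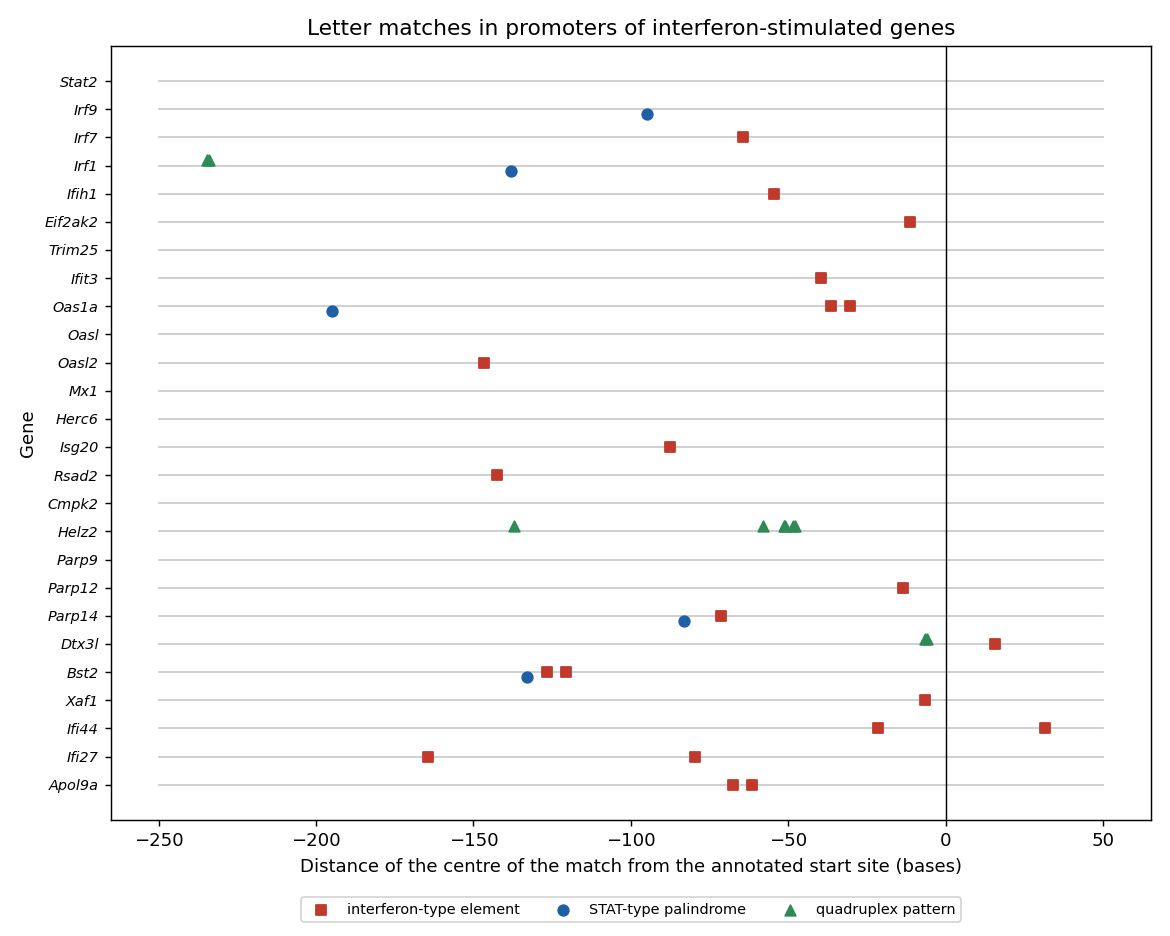
Position of letter matches (centre of the match, in bases from the annotated start site) in the 26 promoters found, 1 line per gene; squares are the interferon-type ISRE core, circles the STAT-type palindrome TTCNNNGAA and triangles the quadruplex pattern. Of 21 squares 14 sit within 100 bases before the start, and 10 promoters hold no square.

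The palindrome TTCNNNGAA, the kind of site bound by STAT dimers, was found in 5 of the 26 promoters (19.2%), against 8.87% of all. A quadruplex pattern, 4 runs of at least 3 G on either strand with loops of 1 to 7 bases, was found in Irf1, Helz2 and Dtx3l only (11.5%), against 16.6% of all promoters. A letter match is a description and not a binding site. Of the genes with an ISRE core 8 of 16 rose under PDS (median log2 fold change 0.62), and of those without it 5 of 10 (0.59). The symbols without a RefSeq promoter here are Ddx58, Dhx58, Ifit1, Ifit2, Oas2, Mx2, Isg15, Usp18, Parp10 and Rtp4.

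Library totals ran from 15715121 to 18369443 counts. Levels are CPM, counts scaled to a fixed TMM-adjusted library size, and tests are edgeR quasi-likelihood tests over the 14184 genes with Benjamini-Hochberg adjustment and a threshold of 0.05. The error given with ± is the SE of a log2 fold change, or the SD of CPM over 3 libraries. The Braco-19 arm stood apart from the other arms: genes longer than 5000 bp took 24.2% of counts with Braco-19 and 25.3% in its controls, against 7.99% to 9.99% in the other groups. Phen-DC3 libraries were at 7.99% and their controls at 9.99%. Of the nucleus pulposus markers, Krt19, Tbxt and Shh were at 0 counts in every group, and the summed level of the 16 listed was 282 to 335 CPM in the PDS and Phen-DC3 arms and 448 to 476 CPM in the Braco-19 arm. Krt19, Tbxt and Shh are among the notochordal markers of the list and may not be all of them. Of the 16 genes listed, 13 had counts in some library. Krt18 was at 0 counts with PDS, in PDS controls and in Braco-19 controls, and had counts in the other groups. Leukocytes also use these antiviral genes. Of 17 leukocyte markers Ptprc, C1qa, C1qb, Cd3e, Nkg7, S100a9 and Siglech were at 0 in every group. The other 10 had counts in some library, and Cd68, Csf1r, Aif1 and Cd14 had counts in every group. The summed level of the leukocyte markers was 113 to 122 CPM with PDS, against 109 to 114 CPM in its controls. With Phen-DC3 the same sum was 108 to 118 CPM, against 95.5 to 107 CPM, and with Braco-19 44.2 to 47.7 CPM, against 34.5 to 42.4 CPM. Their part in the results below was not tested. The fibroblast list was at 2840 to 3050 CPM with PDS and 2970 to 3370 CPM in its controls. With Phen-DC3 it was at 2930 to 3280 CPM, against 3320 to 3410 CPM. In the Braco-19 arm this list was higher, at 6720 to 7930 CPM with Braco-19 and 6110 to 7300 CPM in its controls. The endothelial, erythroid and muscle lists stayed under 2.5 CPM in every library.

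PDS raised a broad set of these genes. Of the 35 tested, 19 rose and 0 fell, where 5.13% of all tested genes rose and 2.96% fell. Oas1a and Mx1 reached the count minimum only through the PDS libraries, and of the 33 members left without them 18 rose. The largest changes were in Rsad2 (4.87-fold), Usp18 (3.72-fold), Mx2 (3.56-fold), Ifit3 (3.48-fold) and Oasl (3.25-fold), beside Oas1a, whose counts were low. The median log2 fold change of the 35 was 0.71, against 0.02 over all tested genes, and 33 of 35 changes were positive (52.8% of all genes). At an unadjusted p under 0.05 there were 28 members (22.8% of all genes), or 26 without Oas1a and Mx1, and of the 28 only Parp10 had a negative change. DESeq2 and limma voom also called 0 lower, where DESeq2 called 4.53% of the genes with an adjusted p lower and limma voom 6.97% of all genes. In 26 genes (24 without Oas1a and Mx1) all 3 PDS libraries lay above all 3 controls, as 17.7% of all genes did, and in 1, Parp10, all lay below, as 15.6% of all genes did. Summed over the members without the abundant Ifi27, the PDS libraries held 605, 656 and 688 CPM, and the controls 394, 419 and 443 CPM. In bulk RNA, a change in how many cells express a gene and a change in RNA per cell cannot be told apart.

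**Figure D2:**
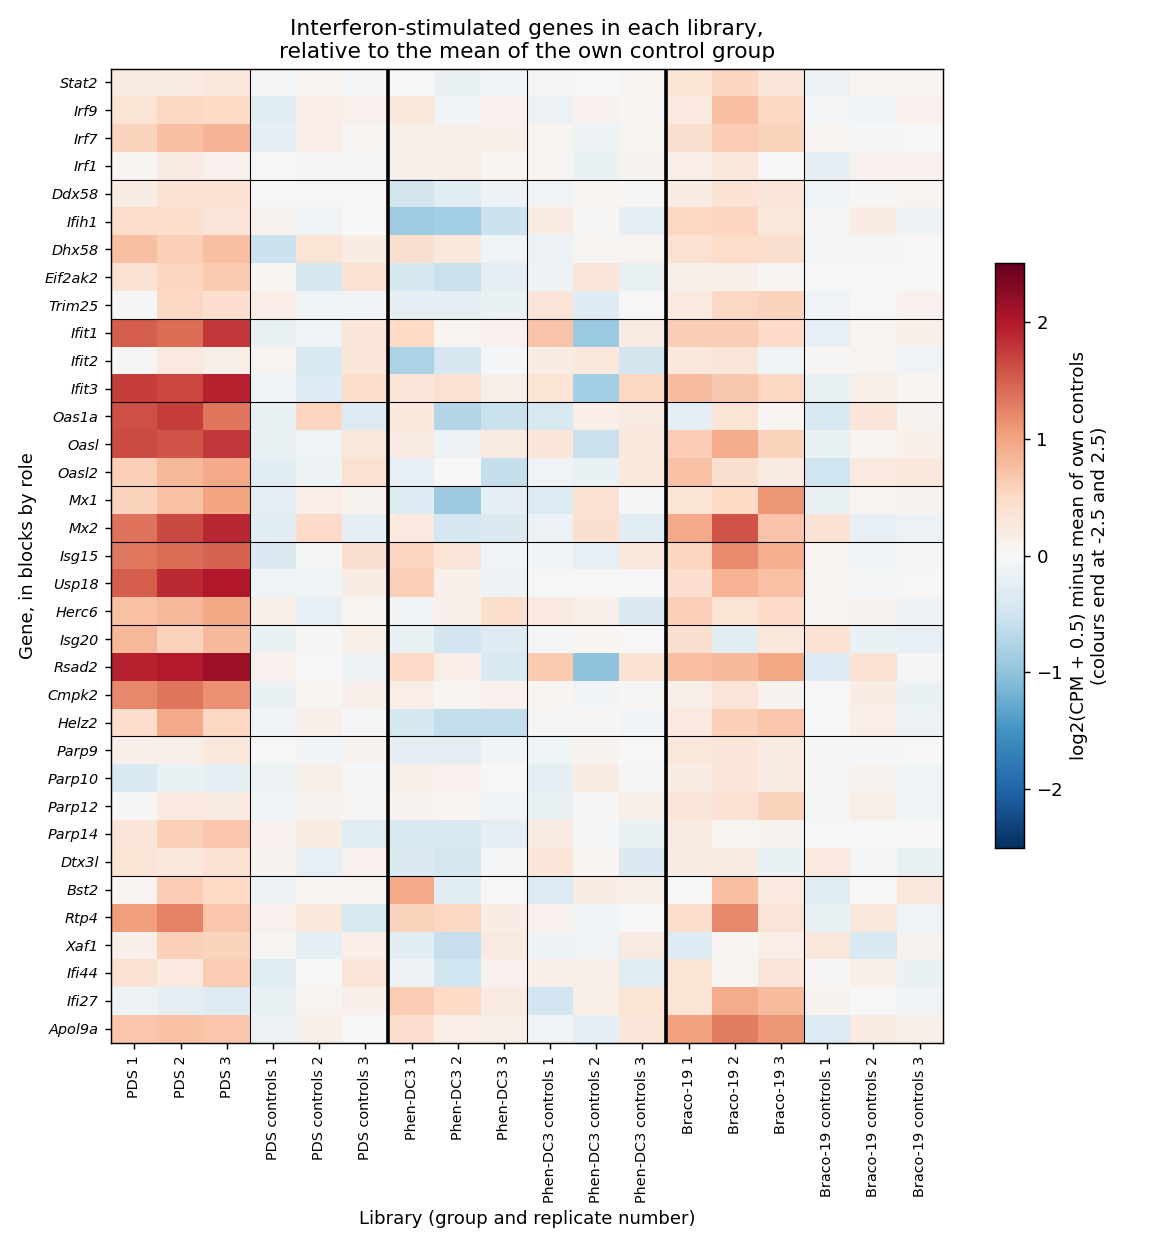
Level of the 35 tested genes (rows, in blocks by role) in each of the 18 libraries (columns), as log2(CPM + 0.5) minus the mean of the library's own control group; red is higher and blue lower. The 3 PDS columns are red over most rows, the 3 Braco-19 columns are paler red, and the Phen-DC3 columns mix pale red and pale blue.

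Some PDS calls depended on single libraries. With PDS replicate 2 or PDS control replicate 1 left out, 12 members were called higher, where 3.04% and 3.88% of all genes were. Irf7, Ifit1, Ifit3, Oasl, Mx2, Isg15, Usp18, Herc6, Rsad2, Cmpk2 and Apol9a were called in each of the 18 fits that left out 1 library. The other calls ended in at least 1 of them, with adjusted p up to 0.15 for Irf9, 0.13 for Dhx58, Oas1a and Isg20, 0.16 for Oasl2, 0.094 for Helz2, 0.075 for Parp14 and 0.11 for Rtp4. The libraries concerned were those of PDS and its controls, and for Oasl2 and Isg20 also Phen-DC3 control replicate 2 and for Oasl2 Braco-19 replicate 2. Against all 9 control libraries pooled, 7 members were called higher, where 0.472% of all genes were. In that fit Herc6, Helz2 and Parp14 had changes of -0.35, -0.43 and -0.001.

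Phen-DC3 raised none of these genes by the same test. Of the 35 tested genes 0 rose and 2 fell, Ifih1 and Helz2, where 2.19% of all tested genes rose and 5.82% fell. The median was -0.04, against -0.01 over all genes, and 17 of 35 changes were positive (48.7% of all genes). At an unadjusted p under 0.05 there were 7 members, all lower except Ifi27, a smaller share than the 28.9% of all genes. DESeq2 called 1 member higher (Ifi27) and 3 lower, where it called 7.93% of the genes to which it gave an adjusted p higher and 12.2% lower. With limma voom and sample weights 5 members were higher and 11 lower, where 15.9% of all genes were higher and 17.4% lower. In edgeR, 0 were called lower without Phen-DC3 replicate 1 (0% of all genes), Phen-DC3 replicate 2 (0.146%) or Phen-DC3 control replicate 1 (0.0208%). There was 1 without Phen-DC3 control replicate 2 (0.824%), and there were 3 without PDS control replicate 2 (6.63%). The count was 5 without Phen-DC3 replicate 3 (11.1%) or Phen-DC3 control replicate 3 (12.9%). All 3 Phen-DC3 libraries lay above all controls in 2 genes, Irf7 and Rtp4, as in 10.1% of all genes, and below in 6 genes, as in 11.9% of all genes. The summed level without Ifi27 was 417, 385 and 407 CPM with Phen-DC3 and 432, 421 and 429 CPM in its controls. Replicate spread was widest in the Phen-DC3 controls, where replicate 2 held 48 counts of Ifit1 and 12 of Rsad2, against 164 and 120 of Ifit1 and 55 and 46 of Rsad2 in the others. Without that library the log2 fold change of Rsad2 under Phen-DC3 was -0.45, and that of Ifit3 -0.15.

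With Braco-19 few genes were called, although nearly all changes had the same sign. Of the 35, 3 rose (Stat2, Irf7 and Apol9a) and 0 fell, where 0.169% of all tested genes rose and 0.106% fell. The median log2 fold change was 0.45, against 0.00 over all genes, and 34 of 35 changes were positive (50.5% of all genes), Xaf1 (-0.06) being the exception. All 3 Braco-19 libraries lay above all 3 controls in 25 genes, as in 13.7% of all genes, and below in 0, as 14.4% of all genes did. At an unadjusted p under 0.05 there were 23 members, all higher (18.8% of all genes, of either sign). The number called higher differed between fits. It was 16 when only the Braco-19 arm was fitted (3.21% of all genes in that fit), 18 with limma voom (6.75%), 8 with DESeq2 (2.76% of the genes with an adjusted p) and 0 against the 9 pooled controls (0%). In edgeR it was 10 without Phen-DC3 control replicate 1 (1.79% of all genes) and 7 without Braco-19 replicate 1 (0.833%). It was 1 without PDS replicate 2 (0.0692%), any Braco-19 control replicate (0.0139% to 0.0763%) or Braco-19 replicate 2 (0.0208%) or 3 (0.00694%). The summed level without Ifi27 was 688, 753 and 691 CPM with Braco-19, and 511, 550 and 538 CPM in its controls. Mitochondrial genes took 2.46%, 2.22% and 2.18% of counts with Braco-19, and 3.30%, 2.74% and 2.83% in its controls. The Braco-19 libraries were all below their controls in this share, whose part in the result was not tested.

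**Figure D3:**
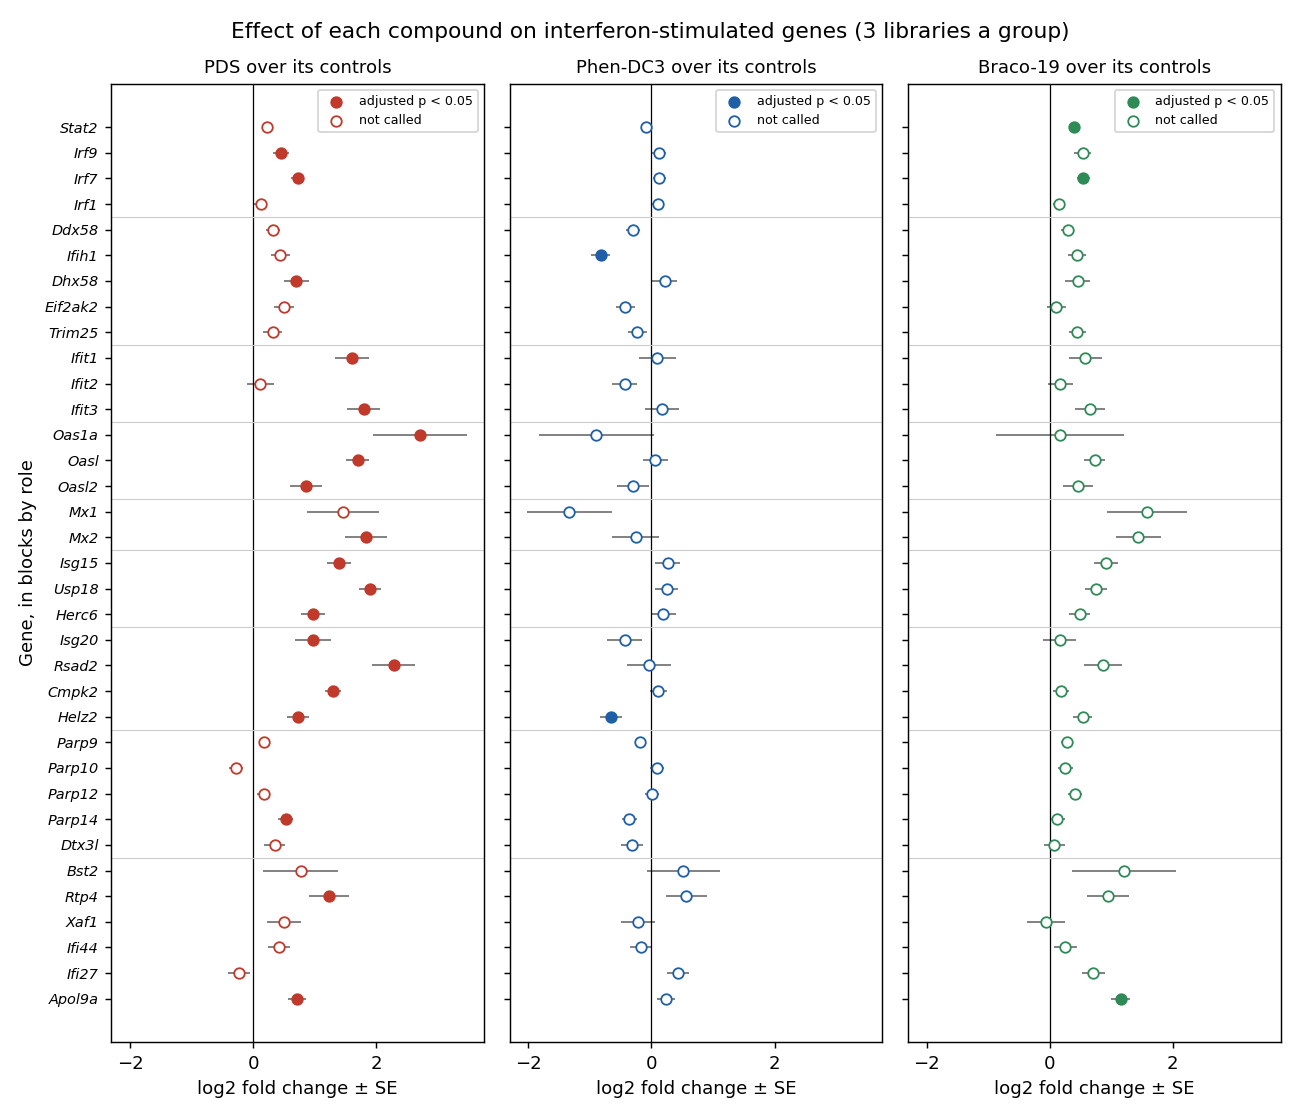
Log2 fold change ± SE of each tested gene (rows) for PDS (left), Phen-DC3 (middle) and Braco-19 (right), each over its own controls, 3 libraries a group; filled points passed the adjusted threshold. PDS has 19 filled points, all right of 0, Phen-DC3 has 2, left of 0, and Braco-19 has 3, right of 0.

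Among the signalling and transcription factors, 2 of 4 rose under PDS. Irf7, the factor that amplifies interferon transcription (ENSRNOG00000017414, chromosome 1, 214248837 to 214252456), had 41.7, 47.5 and 51.2 CPM with PDS and 24.1, 31.7 and 29.2 CPM in its controls. The groups did not overlap, and the log2 fold change was 0.72 ± 0.10 (adjusted p = 1e-04). In Phen-DC3 libraries it had 24.9, 24.5 and 24.4 CPM, against 23.2, 20.6 and 23.6 CPM (0.13 ± 0.11, adjusted p = 0.43). In Braco-19 libraries it had 19.6, 23.0 and 21.9 CPM, against 15.2, 14.5 and 14.6 CPM, and rose by 0.54 ± 0.11 (adjusted p = 0.034). Irf7 overlaps Phrf1 on the opposite strand, and without stated strandedness reads of the overlap cannot be assigned. Irf9, the DNA-binding part of ISGF3, rose under PDS to 41.3 ± 2.75 CPM, against 30.2 ± 4.88 CPM in controls (0.45 ± 0.13, adjusted p = 0.032).

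Stat2, the ISGF3 subunit that Irf9 binds, rose under Braco-19, with 67.8, 77.4 and 65.7 CPM, against 48.8, 55.8 and 55.3 CPM (0.40 ± 0.08, adjusted p = 0.034). All 3 treated libraries were above the controls, although the call ended without 5 of the 6 single libraries of that arm, without any PDS replicate and without Phen-DC3 control replicate 2. Under PDS it had 58.4, 57.3 and 60.1 CPM, against 49.2, 52.5 and 48.3 CPM, which did not pass the threshold (0.23 ± 0.08, adjusted p = 0.086). Irf1, a factor induced mainly by interferon gamma, had 27.0, 30.4 and 28.4 CPM with PDS, against 26.4, 26.8 and 25.5 CPM in controls, and its change of 0.13 ± 0.10 had an adjusted p of 0.48. Its changes under Phen-DC3 (0.10 ± 0.10) and Braco-19 (0.15 ± 0.10) were not called either.

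Of the 5 RNA sensors and their regulators, 1 rose under PDS. Dhx58, which encodes LGP2, a helper of the other sensors, had 8.71, 7.81 and 8.75 CPM with PDS, against 3.26, 6.48 and 5.75 CPM. The groups were separate, control replicate 1 being the lowest library, and the log2 fold change was 0.70 ± 0.20 (adjusted p = 0.032). Ddx58, the sensor RIG-I, had 13.7 ± 0.98 CPM with PDS, against 10.9 ± 0.12 CPM in the controls (0.32 ± 0.11, adjusted p = 0.081). Trim25, the ubiquitin ligase that activates RIG-I, had 17.8, 26.1 and 24.4 CPM with PDS, against 20.6, 16.9 and 17.2 CPM in controls (adjusted p = 0.22). Eif2ak2, the kinase PKR that halts translation on double-stranded RNA, had 33.0, 36.9 and 40.2 CPM with PDS, against 26.2, 18.6 and 33.2 CPM in controls (0.50 ± 0.16, adjusted p = 0.067). The groups overlapped, since PDS replicate 1 was just under control replicate 3.

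Ifih1, the sensor MDA5 for long double-stranded RNA (ENSRNOG00000006227, chromosome 3, 48557696 to 48604097), was called under Phen-DC3, and its PDS and Braco-19 changes had the other sign. With Phen-DC3 it had 4.26, 4.39 and 5.58 CPM, against 9.72, 8.53 and 7.01 CPM in its controls. The groups did not overlap, and it fell by 0.83 ± 0.15 on the log2 scale (adjusted p = 0.011). The adjusted p was 0.2 when only the Phen-DC3 arm was fitted, 0.077 without Phen-DC3 control replicate 1, 0.11 without Phen-DC3 replicate 1 and 0.05 without Phen-DC3 replicate 2. With PDS it had 8.00, 7.87 and 7.22 CPM, against 6.05, 5.30 and 5.63 CPM (0.44 ± 0.15, adjusted p = 0.078). With Braco-19 it had 16.6, 16.9 and 13.9 CPM, against 11.1, 13.2 and 10.5 CPM (0.45 ± 0.14, adjusted p = 0.15). Both treated groups lay wholly above their controls without passing the threshold.

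The 3 IFIT genes, which bind viral RNA and hold back its translation, are neighbours on chromosome 1, with gaps of 5.51 kb between Ifit2 and Ifit3 and 32.7 kb between Ifit3 and Ifit1. Of these, 2 rose under PDS. Ifit3 (ENSRNOG00000022839, chromosome 1, 252906234 to 252911382) had 28.4, 27.3 and 32.7 CPM with PDS, against 7.56, 6.36 and 11.5 CPM in controls. The lowest PDS library was well above the highest control, and the log2 fold change was 1.80 ± 0.27 (adjusted p = 0.00064). Ifit1 had 23.8, 22.1 and 28.7 CPM, against 7.01, 7.48 and 10.0 CPM (1.61 ± 0.28, adjusted p = 0.0022). Ifit2 had 13.0, 15.3 and 14.2 CPM with PDS, against 13.5, 9.72 and 15.9 CPM in controls. The Ifit2 groups overlapped fully, and its change of 0.12 ± 0.21 (95% interval -0.34 to 0.58) was not called (adjusted p = 0.77).

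With Braco-19, Ifit3 had 46.0, 42.8 and 38.2 CPM, against 23.4, 29.4 and 27.7 CPM (0.66 ± 0.25, adjusted p = 0.19). Ifit2 in that arm had 24.1, 24.9 and 18.7 CPM, against 20.5, 21.0 and 18.7 CPM (0.17 ± 0.21). With Phen-DC3, Ifit3 had 9.26, 9.78 and 8.20 CPM, against 9.47, 3.87 and 10.8 CPM, and replicate 2 of the controls was far below the other control libraries. The Phen-DC3 change of Ifit3 was 0.17 ± 0.28 (adjusted p = 0.73), and that of Ifit2 was -0.44 ± 0.21 (adjusted p = 0.18). Reads shared between Ifit1 and its near copies could be split, so its level is less certain than that of Ifit3.

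**Figure D4:**
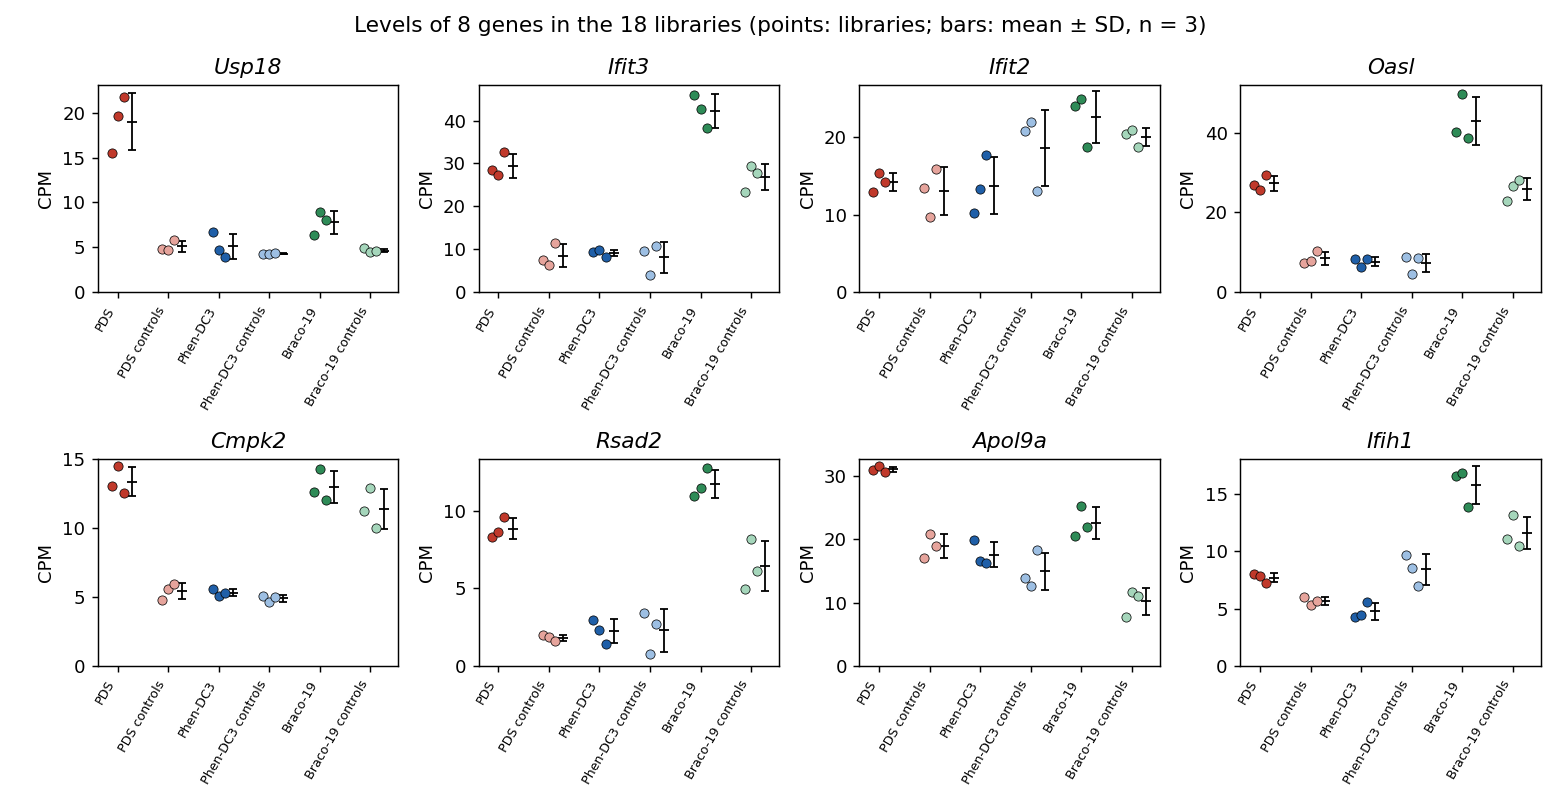
CPM (linear axes from 0) of 8 genes in the 18 libraries, 6 groups on each horizontal axis; points are libraries and bars mean ± SD (n = 3). Usp18, Ifit3, Oasl, Cmpk2 and Rsad2 are separated between PDS and its controls, Ifit2 is not, and Ifih1 is low with Phen-DC3.

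OAS proteins make 2′-5′-linked oligoadenylates that activate RNase L, and the OAS-like genes are their relatives. Oasl had 26.7, 25.6 and 29.4 CPM with PDS, against 7.19, 7.72 and 10.2 CPM. The groups were far apart, with a log2 fold change of 1.70 ± 0.19 (adjusted p = 1.2e-05). Its neighbour Oasl2, 12.7 kb away, had 5.10, 6.07 and 6.64 CPM with PDS, against 2.60, 2.89 and 4.31 CPM in controls (0.86 ± 0.26, adjusted p = 0.041). With Braco-19, Oasl had 40.2, 49.7 and 38.7 CPM, against 22.7, 26.6 and 28.1 CPM, separated but not called (0.73 ± 0.17, adjusted p = 0.097). Phen-DC3 libraries had 8.27, 6.27 and 8.26 CPM, against 8.72, 4.60 and 8.47 CPM (0.06 ± 0.20, 95% interval -0.37 to 0.50).

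Oas1a was counted rarely: 28, 31 and 22 counts with PDS, against 2, 9 and 1 in its controls, and 0 to 8 counts in every other library. The PDS libraries stood above all 15 others. Because only they reached the count minimum, the gene was tested through the group in which it was high, and its log2 fold change of 2.71 ± 0.76 (adjusted p = 0.031) describes these libraries. Oas2 had 1 count in each of 2 libraries and 0 in the others, and was not tested. At 3 counts as the least that can be told from 0, Oas2 was below about 0.2 CPM. Oas1a belongs to a family of near-identical copies, and its reads could be shared among them.

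Mx proteins are GTPases that trap viral particles. Mx2 had 5.45, 6.79 and 8.16 CPM with PDS, against 1.45, 2.77 and 1.5 CPM in controls, and rose by 1.83 ± 0.34 (adjusted p = 0.0015). Braco-19 libraries had 2.30, 3.82 and 1.90 CPM, against 1.37, 0.771 and 0.811 CPM, all above the controls but not called (1.44 ± 0.37, adjusted p = 0.1). Mx1 was near the count minimum, with 12, 14 and 19 counts under PDS, against 3, 7 and 6, and its change of 1.46 ± 0.59 was not called (adjusted p = 0.14). Only 2 libraries outside the PDS group reached the count minimum for Mx1, so it too was tested through that group. With Phen-DC3, Mx1 had 4, 0 and 5 counts, against 4, 12 and 7 (adjusted p = 0.21). The Mx genes are close relatives 120 kb apart, so counts may be split between them.

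All 3 genes of the ISG15 system rose under PDS. Usp18, the protease that removes ISG15 and damps the interferon receptor (ENSRNOG00000037198, chromosome 4, 153805993 to 153834430), had 15.5, 19.7 and 21.8 CPM with PDS, against 4.78, 4.71 and 5.81 CPM. It had the smallest p of all members, with a log2 fold change of 1.90 ± 0.18 (adjusted p = 1.8e-06). With Braco-19 it had 6.39, 8.89 and 8.04 CPM, against 4.85, 4.45 and 4.55 CPM, separated but short of the threshold (0.75 ± 0.19, adjusted p = 0.098). With Phen-DC3 it had 6.66, 4.69 and 3.86 CPM, against 4.24, 4.23 and 4.32 CPM, overlapping (0.25 ± 0.19, adjusted p = 0.41). Isg15, the modifier, had 48.8, 51.4 and 54.7 CPM with PDS, against 14.9, 18.6 and 25.6 CPM (1.39 ± 0.20, adjusted p = 0.00028). Herc6, the main ISG15 ligase in mice, had 4.15, 4.51 and 4.99 CPM with PDS, against 2.60, 1.94 and 2.40 CPM (0.97 ± 0.20, adjusted p = 0.0031).

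Isg15 in the Braco-19 arm had 21.7, 34.2 and 28.5 CPM, against 15.7, 13.9 and 15.2 CPM (0.92 ± 0.20, adjusted p = 0.076). In the Phen-DC3 arm it had 22.8, 19.6 and 14.5 CPM, against 15, 13.4 and 18.9 CPM (0.27 ± 0.20, adjusted p = 0.41). The PDS and Braco-19 groups were separate from their controls and the Phen-DC3 groups were not. Per kilobase of gene model, Isg15 was the most abundant member after Ifi27 in PDS libraries, at 39.3 ± 2.23 CPM per kb, and the third most abundant in their controls, at 15 ± 4.11 CPM per kb.

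All 4 enzymes of nucleotides and RNA rose under PDS. Rsad2 (viperin) makes a nucleotide that ends viral RNA chains, and Cmpk2 is a nucleotide kinase; their genes lie head to head on chromosome 6, 14.1 kb apart. Rsad2 had 8.30, 8.66 and 9.63 CPM with PDS, against 1.99, 1.83 and 1.62 CPM, a log2 fold change of 2.28 ± 0.35 (adjusted p = 0.00041). Cmpk2 (ENSRNOG00000007690, chromosome 6, 45683234 to 45694822) had 13.0, 14.5 and 12.6 CPM with PDS, against 4.78, 5.60 and 5.93 CPM in controls (1.30 ± 0.13, adjusted p = 3.9e-06). Both pairs of groups were far apart. In the Braco-19 arm Rsad2 had 11, 11.5 and 12.8 CPM, against 4.98, 8.19 and 6.11 CPM, without overlap (0.87 ± 0.31, adjusted p = 0.17). Cmpk2 there had 12.6, 14.3 and 12.1 CPM, against 11.3, 12.9 and 9.98 CPM, with overlap (0.19 ± 0.13, adjusted p = 0.42).

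Isg20, an exonuclease of viral RNA, had 2.31, 1.86 and 2.29 CPM with PDS, against 0.907, 1.12 and 1.26 CPM in controls (0.97 ± 0.29, adjusted p = 0.039). Helz2, a helicase and transcriptional coactivator with a gene model of 8390 bases, had 4.15, 6.13 and 4.40 CPM with PDS, against 2.72, 3.24 and 2.87 CPM in controls (0.73 ± 0.17, adjusted p = 0.012). With Phen-DC3, Helz2 had 2.35, 1.99 and 2.02 CPM, against 3.43, 3.44 and 3.15 CPM. The groups were separate, and it fell by 0.66 ± 0.19 (adjusted p = 0.039). Corrected for each library's trend with gene length, the Phen-DC3 change was -0.24 (adjusted p = 0.52). The call also ended without Phen-DC3 replicate 1 or 2 or Phen-DC3 control replicate 1 or 2, with adjusted p up to 0.15. With Braco-19, Helz2 had 16.1, 20.6 and 22.3 CPM, against 13.4, 15.1 and 12.1 CPM (0.54 ± 0.15, adjusted p = 0.13).

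The PARP family adds ADP-ribose to proteins and nucleic acids, and 1 of its 5 listed genes rose under PDS. Parp14 had 25.1, 31.2 and 33.1 CPM with PDS, against 22.2, 23.3 and 16.5 CPM (0.53 ± 0.12, adjusted p = 0.01). With Phen-DC3 it had 18.2, 18.4 and 20.3 CPM, against 27.9, 23.4 and 21.6 CPM, all below but not called (-0.36 ± 0.13, adjusted p = 0.075). Parp12 had 22.8, 26.6 and 26.4 CPM with PDS, against 20.9, 23.7 and 22.8 CPM in controls, overlapping (0.17 ± 0.11, adjusted p = 0.36). Parp10 was the one member with all PDS libraries below the controls, at 15.5 ± 1.21 CPM, against 18.7 ± 1.91 CPM (-0.27 ± 0.12, adjusted p = 0.16). Parp9 and its partner ubiquitin ligase Dtx3l share a promoter region, with starts 1.13 kb apart. Parp9 had 35.5 ± 2.01 CPM with PDS, against 31.2 ± 1.61 CPM in the controls, and Dtx3l 10.3 ± 0.34 and 8.07 ± 0.97 CPM, and neither was called (adjusted p = 0.17 and 0.24).

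Of the other effectors, 2 of 6 rose under PDS. Apol9a, an apolipoprotein L relative of rodents (ENSRNOG00000023410, chromosome 7, 118927008 to 118933812), had 30.9, 31.6 and 30.8 CPM with PDS, against 17.1, 20.9 and 18.9 CPM (0.71 ± 0.14, adjusted p = 0.0032). With Braco-19 it had 20.5, 25.4 and 22 CPM, against 7.77, 11.6 and 11.1 CPM. Every treated library was well above every control, and it rose by 1.15 ± 0.15 (adjusted p = 0.0026), the Braco-19 call that held without any single library. Phen-DC3 libraries had 19.9, 16.6 and 16.3 CPM, against 13.9, 12.6 and 18.3 CPM, with overlap (0.24 ± 0.15, adjusted p = 0.3). Rtp4, a chaperone of receptors that also restricts viruses, had 3.14, 3.67 and 2.35 CPM with PDS, against 1.39, 1.65 and 0.839 CPM in controls (1.23 ± 0.33, adjusted p = 0.021).

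Ifi27, a mitochondrial protein strongly induced by interferon in many cells, was the most abundant member per kilobase in all 6 groups and had a negative change under PDS. With PDS it had 321, 300 and 283 CPM, against 308, 368 and 384 CPM (-0.23 ± 0.18, adjusted p = 0.48). With Phen-DC3 it had 469, 428 and 354 CPM, against 216, 332 and 380 CPM (0.43 ± 0.18, adjusted p = 0.14). With Braco-19 it had 92.5, 138 and 126 CPM, against 77.2, 72.6 and 68.4 CPM, separated but not called (0.71 ± 0.19, adjusted p = 0.12). Ifi44, Xaf1 and Bst2 (tetherin, which holds virions at the cell surface) had PDS changes of 0.42 ± 0.18, 0.50 ± 0.28 and 0.77 ± 0.62, none of them called (adjusted p = 0.16, 0.3 and 0.47). Bst2 rested on 8, 16 and 14 counts with PDS and 6, 8 and 8 in controls.

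The differences between the compounds were tested directly in the same model. The doses are not in the labels, so these are differences between the exposures used, all of 24 hours, and each effect is against its own controls. PDS minus Phen-DC3 was called above 0 for 19 of 35 members and below 0 for 0, where 12.4% of all genes were called above and 7.76% below. Without Oas1a and Mx1, tested through the PDS libraries, 17 of 33 were called above. At an unadjusted p under 0.05 there were 27 members of the 35, or 25 of the 33 (35.9% of all genes). DESeq2 and limma voom each called 1 member below, Ifi27, where DESeq2 called 11.8% of the genes with an adjusted p below and limma voom 16.7% of all genes. The largest were Rsad2 at 2.33 ± 0.50 (adjusted p = 0.0057), Mx2 at 2.09 ± 0.51 (adjusted p = 0.0096), Usp18 at 1.65 ± 0.26 (adjusted p = 0.00077), Oasl at 1.64 ± 0.27 (adjusted p = 0.0013) and Ifit3 at 1.63 ± 0.39 (adjusted p = 0.011), beside the low-count Oas1a and Mx1. Ddx58, Ifih1, Eif2ak2, Mx1 and Parp9 were called in this difference without a call under PDS alone. For Ifih1 and Eif2ak2 the PDS controls were themselves called lower than the Phen-DC3 controls. Ifih1 had a mean of 7.70 CPM with PDS and 8.42 CPM in Phen-DC3 controls, and Eif2ak2 36.7 and 38.2 CPM. The Mx1 and Parp9 calls ended in some fits that left out 1 library. Irf9, Dhx58, Herc6, Rtp4 and Apol9a were called under PDS without a call here.

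PDS minus Braco-19 was called above 0 for 5 members, where 7.28% of all genes were called above, and below 0 for 2, where 6.75% were. Cmpk2 differed by 1.11 ± 0.18 (adjusted p = 0.00096), Usp18 by 1.15 ± 0.26 (adjusted p = 0.008), Oasl by 0.97 ± 0.25 (adjusted p = 0.019), Ifit3 by 1.14 ± 0.36 (adjusted p = 0.048) and Rsad2 by 1.42 ± 0.46 (adjusted p = 0.049). Ifi27 differed by -0.94 ± 0.26 (adjusted p = 0.032) and Parp10 by -0.53 ± 0.17 (adjusted p = 0.04), both with higher values of the effect under Braco-19. For other genes called under PDS the difference was not called: the 95% interval was -0.14 to 0.50 for Irf7, -0.13 to 1.08 for Isg15, -0.70 to 1.48 for Mx2 and -0.89 to 0.01 for Apol9a. These intervals leave room for differences of up to that size. With 1 library of the PDS or Braco-19 arms left out, the calls numbered 2 to 4 above and 0 to 2 below. Of all genes, 3.41% to 7.88% were then above and 2.79% to 8.45% below. Without Phen-DC3 replicate 2 there were 3 above (6.71% of all genes). Usp18 and Cmpk2 were called with each of the 18 libraries left out.

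Phen-DC3 minus Braco-19 was called for 1 member, Ifih1, at -1.27 ± 0.21 (adjusted p = 0.038), where 0.0353% of all genes were called below and 0.0141% above. All 35 differences were negative, where 43.7% of all genes had a positive one, with a median of -0.49, against -0.04 over all genes. At an unadjusted p under 0.05 there were 17 members (9.48% of all genes). DESeq2 called 4 below (Stat2, Ifih1, Helz2 and Apol9a), where it called 0.269% of genes with an adjusted p below, and limma voom 9 (2.1% of all genes). The Ifih1 call ended without 11 single libraries: PDS control replicate 1, PDS replicate 2 or 3, Phen-DC3 or Phen-DC3 control replicate 1 or 2, Braco-19 control replicate 1 or 3, and Braco-19 replicate 1 or 2. Correction for gene length left 0 members called, and 0 of all 14184 genes. For Usp18 the interval was -1.08 to 0.08 and for Cmpk2 -0.49 to 0.34.

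The 3 control groups, which the compound effects above are set against, were compared with one another, and the members' shares of calls were near those of all genes. PDS controls and Phen-DC3 controls differed in 2 of 35 members, both lower in PDS controls (4.5% of all genes were lower and 1.59% higher). Ifih1 had 6.05, 5.30 and 5.63 CPM in PDS controls and 9.72, 8.53 and 7.01 CPM in Phen-DC3 controls (-0.57 ± 0.15, adjusted p = 0.034). Eif2ak2 had 26.2, 18.6 and 33.2 CPM in PDS controls and 34.4, 46.9 and 33.4 CPM in Phen-DC3 controls (-0.55 ± 0.16, adjusted p = 0.049). All 3 PDS controls lay below all 3 Phen-DC3 controls for 5 members, where 13.1% of all genes did, and above them for 3 members, where 10.6% did. Irf7 (0.34 ± 0.10, adjusted p = 0.057) and Ifit2 (-0.51 ± 0.21, adjusted p = 0.14) came next by p. Correction for gene length left 0 calls, where 2.02% of all genes were lower and 1.28% higher. The fit of these groups alone also left 0 (0.00756% and 0.0151%). Without PDS control replicate 2 (0.0139% of all genes) or Phen-DC3 control replicate 1 (0.145%) or 2 (0%), 0 members were called lower. There were 3 without Phen-DC3 control replicate 3 (11.6%), 2 without Phen-DC3 replicate 3 (6.33%) and 1 without any other library (1.53% to 5%). Higher calls numbered 0 with all libraries kept. They numbered 2 without PDS control replicate 1 (1.6% of all genes) or Phen-DC3 control replicate 3 (7.33%). At an unadjusted p under 0.05 there were 5 members of either sign, a smaller share than the 25.2% of all genes. DESeq2 called 1 higher (5.21% of the genes with an adjusted p) and limma voom 4 (8.34% of all genes).

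Against Braco-19 controls, PDS controls were higher in 10 members and lower in 14, where 35.6% of all genes were higher and 37.7% lower, so the members' share was near that of all genes. All 3 PDS controls lay above all 3 Braco-19 controls for 11 members (37.4% of all genes) and below them for 15 (39.6%). Herc6 had 2.60, 1.94 and 2.40 CPM in PDS controls, against 13.2, 13.5 and 11.3 CPM in Braco-19 controls (-2.45 ± 0.19, adjusted p = 3.1e-10). Helz2 had 2.72, 3.24 and 2.87 CPM, against 13.4, 15.1 and 12.1 CPM (-2.20 ± 0.17, adjusted p = 3.2e-10), and its change was -0.44 after correction for gene length. Ifi27 ran the other way, with 308, 368 and 384 CPM in PDS controls and 77.2, 72.6 and 68.4 CPM in Braco-19 controls (2.28 ± 0.19, adjusted p = 5.9e-08). The groups did not touch in any of these. Parp14 was lower in PDS controls (-1.11 ± 0.12, adjusted p = 6.4e-08) and higher after correction for gene length (0.38, adjusted p = 0.0013), so its direction turned. Dtx3l turned too (-0.41, and 0.46 corrected), as did Xaf1 (0.74, and -0.02 corrected).

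Phen-DC3 controls, set against the same Braco-19 controls and so not independent of the last comparison, were higher in 10 members and lower in 11 (34.6% and 34.9% of all genes). The groups did not overlap for 10 members above (34.8% of all genes) and 13 below (36.4%). Oasl had 8.72, 4.60 and 8.47 CPM in Phen-DC3 controls, against 22.7, 26.6 and 28.1 CPM in Braco-19 controls (-1.83 ± 0.19, adjusted p = 6.9e-08). Cmpk2 had 5.05, 4.60 and 5.02 CPM, against 11.3, 12.9 and 9.98 CPM (-1.22 ± 0.14, adjusted p = 9.3e-08). These groups did not overlap. Herc6 differed by -2.36 ± 0.19 and Helz2 by -2.02 ± 0.17, and Helz2 by -0.54 after correction for gene length. Some genes that PDS raised had levels in PDS libraries that overlapped those of Braco-19 controls: Oasl stood at 26.7, 25.6 and 29.4 CPM with PDS and Cmpk2 at 13.0, 14.5 and 12.6 CPM. Usp18 did not overlap, at 4.85, 4.45 and 4.55 CPM in Braco-19 controls. The Braco-19 arm and the conditions of its culture cannot be told apart here.

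**Figure D5:**
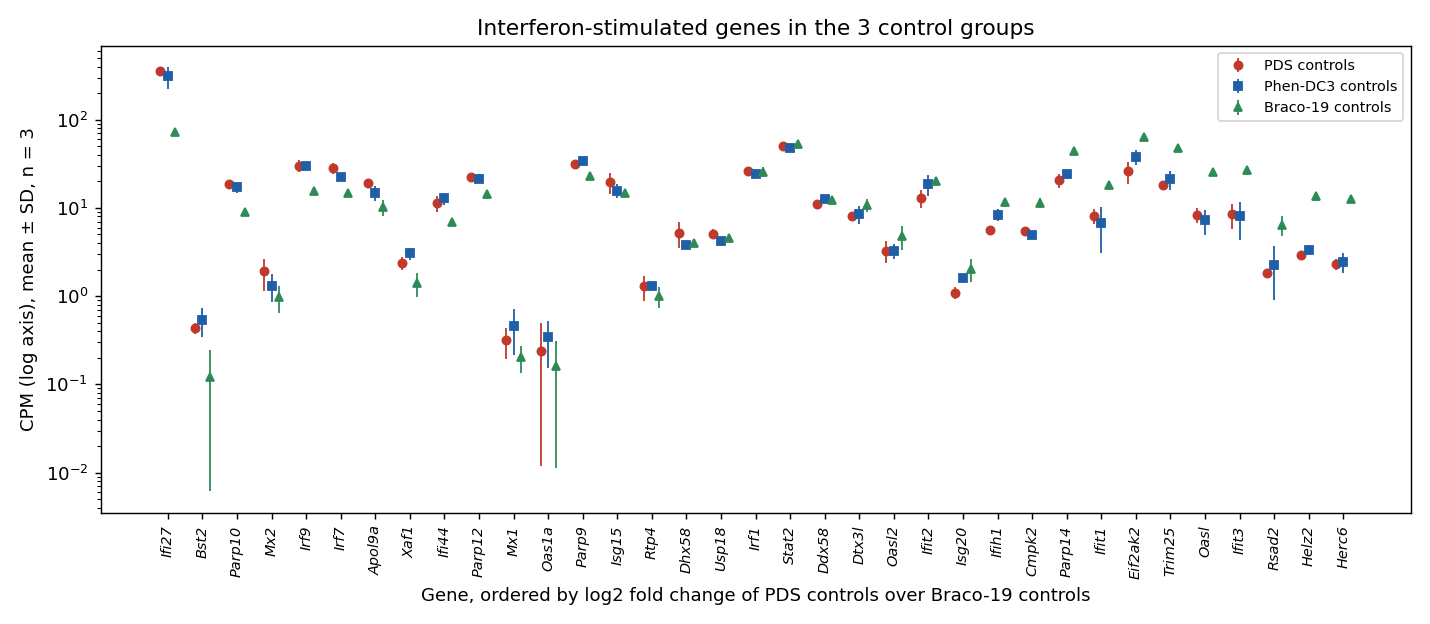
CPM (log axis), mean ± SD of 3 libraries, of the 35 tested genes in PDS controls (circles), Phen-DC3 controls (squares) and Braco-19 controls (triangles), ordered by the difference of PDS from Braco-19 controls; a lower bar that would reach 0 is cut short. Triangles lie far below the others at the left (Ifi27) and far above at the right (Herc6, Helz2).

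The other parts of the pathway were read from lists of genes beyond the 36, also chosen with earlier results of these data known. Of 10 interferon genes in the table, 8 had 0 counts in all 18 libraries, among them Ifnb1, Ifng and 4 Ifna genes, and the others, Ifne and Ifnk, reached at most 11 and 3 counts. Of 16 receptors and kinases tested, 1 rose under PDS, 1 fell under Phen-DC3 and 0 were called under Braco-19. Over all genes 5.13% rose under PDS and 5.82% fell under Phen-DC3, so 1 of 16 is near that background. Ifngr1, a subunit of the interferon gamma receptor, rose under PDS to 126 ± 1.57 CPM, against 99.8 ± 0.62 CPM (0.33 ± 0.07, adjusted p = 0.0065). Jak1, the shared kinase, fell under Phen-DC3 (-0.35 ± 0.10, adjusted p = 0.032). Ifnar1 stood at 118 ± 7.58 CPM with PDS and 122 ± 0.76 CPM in controls (-0.05 ± 0.07, adjusted p = 0.74).

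Of 15 tested genes between nucleic acid sensing and interferon induction, 3 rose and 1 fell under PDS (5.13% and 2.96% of all genes), and 0 were called under Phen-DC3 or Braco-19. Ddx41, a helicase of DNA sensing, rose by 0.58 ± 0.10 (adjusted p = 0.00051), Traf3, an adaptor, by 0.34 ± 0.09 (adjusted p = 0.016) and Adar, the editor of double-stranded RNA, by 0.31 ± 0.10 (adjusted p = 0.047). Sting1, the adaptor of DNA sensing, fell by 0.57 ± 0.17 (adjusted p = 0.044). Of 55 further interferon-stimulated genes tested, 9 rose and 1 fell under PDS (median 0.13), where 5.13% of all genes rose and 2.96% fell. Under Phen-DC3 3 rose and 3 fell (median 0.05), where 2.19% of all genes rose and 5.82% fell, and the share that fell is near that background. Under Braco-19 3 rose and 0 fell (median 0.17), where 0.169% and 0.106% of all genes did. The smallest p under PDS were those of Gbp5, a guanylate-binding protein (1.24 ± 0.14, adjusted p = 7e-06), the chemokines Cxcl11 (1.73 ± 0.21, adjusted p = 2.1e-05) and Cxcl10 (1.97 ± 0.23, adjusted p = 0.00017), and Gbp4 (1.71 ± 0.26, adjusted p = 0.00028). The changes of these genes under Phen-DC3 were 0.11, 0.05, 0.19 and 0.14.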

How the data were processed

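The authors deposited 1 table of raw gene counts, as integers without normalisation, with gene symbols, positions and gene-model lengths. Per the submitters' processing notes CASAVA, HISAT2 and featureCounts 1.5.0-p3 were used. The genome build, annotation release, strandedness and counting options: not given in the sources used here. Coordinates of genes are those of the table, and those of promoters are RefSeq GRCr8.

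The test was edgeR 4.0.16 in R 4.3.3: TMM scaling, filterByExpr by group (14184 of 33898 genes kept) and 1 robust quasi-likelihood model of 6 group means (18 libraries, 12 residual degrees of freedom), two-sided F-tests, Benjamini-Hochberg over all tested genes of a comparison, threshold 0.05. Standard errors were derived from the F statistics. Library totals were 15715121 to 18369443 counts. There were no molecular identifiers, so counting error understates the true error. The script was tested on simulated data. Promoters were matched by symbol in Python 3.11.15.

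The members, gene lists and tests were chosen with earlier results of these data known. All members may be named; values of every library were set for the members with the smallest and the largest p under PDS in each role, those called under Phen-DC3 or Braco-19, and the 4 with the smallest p in each control comparison. Ifit1, Oas1a, Isg15, Rsad2, Rtp4 and Bst2 were added after their values were seen. Alternatives were RLE and upper-quartile scaling, no filter or a CPM filter, DESeq2 1.42.0, limma 3.58.1 voom with sample weights, the groups of the comparison alone, an offset for each library's trend with gene length, the replicate number as a block, pooled controls, and each library left out.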

Additional observations from a re-analysis of the deposited data

Results flagged for a closer look

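Differences between compounds in the effect on a gene, by the interaction test in edgeR with Benjamini-Hochberg adjustment over all genes, were found for 19 members between PDS and Phen-DC3, on the log2 scale, or for 17 without Oas1a and Mx1. They were 0.59 for Irf7, 0.63 for Ddx58, 1.27 for Ifih1 and 0.92 for Eif2ak2, the factors and sensors. Among the effectors they were 1.51 for Ifit1, 1.63 for Ifit3, 3.61 for Oas1a, 1.64 for Oasl, 1.16 for Oasl2, 2.80 for Mx1 and 2.09 for Mx2. The remaining ones were 1.12 for Isg15, 1.65 for Usp18, 1.41 for Isg20, 2.33 for Rsad2, 1.19 for Cmpk2, 1.39 for Helz2, 0.37 for Parp9 and 0.89 for Parp14. Oas1a and Mx1 reached the count minimum only through the PDS libraries, where they were high, so their values describe these libraries and are no test.

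Between PDS and Braco-19 the difference was found for 7 members: 1.14 for Ifit3, 0.97 for Oasl, 1.15 for Usp18, 1.42 for Rsad2, 1.11 for Cmpk2, -0.53 for Parp10 and -0.94 for Ifi27. Between Phen-DC3 and Braco-19 it was found for Ifih1, at -1.27. Groups of 3 libraries are too small to test a single library as an outlier.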

How the results depend on the processing

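Counts of members called, edgeR as fitted, changed by more than 1.5 times as follows. Percentages are shares of all genes of the fit called in that direction, for DESeq2 of the genes with an adjusted p. PDS higher, 19: 7 with 9 controls pooled (0.472% of all genes) and 12 to 19 with a library left out (2.58% to 6%). Phen-DC3 higher, 0: 5 with limma voom (15.9%), 1 with DESeq2 (7.93%), 0 to 1 with a library left out (0% to 10%). Phen-DC3 lower, 2: 1 with no filter (3.15% of all genes) and with length correction (0.176%), 0 with pooled controls and with its groups alone (0%). It was 11 with voom (17.4%) and 0 to 5 left out (0% to 12.9%). Braco-19 higher, 3: 16 with its groups alone (3.21%), 0 pooled (0% of all genes) and 18 with voom (6.75%). It was 8 with DESeq2 (2.76%) and 1 to 10 left out (0.00694% to 1.79%). PDS minus Phen-DC3 higher, 19: 13 to 21 left out (6.82% to 16.7%). PDS minus Phen-DC3 lower, 0: 1 with voom (16.7%) and with DESeq2 (11.8%), 0 to 1 left out (3.21% to 12.5%). PDS minus Braco-19 higher, 5: 3 with RLE (7.23%), with upper quartile (6.15%) and with no filter (3.88%). It was 8 with voom (13.9%) and 2 to 6 left out (3.41% to 9.18%). PDS minus Braco-19 lower, 2: 0 with no filter (3.57%), 0 to 2 left out (2.79% to 9.34%). Phen-DC3 minus Braco-19 lower, 1: 0 with length correction and with its groups alone (0% of all genes in both). It was 9 with voom (2.1%), 4 with DESeq2 (0.269%) and 0 to 1 left out (0% to 0.0831%). PDS against Phen-DC3 controls higher, 0: 4 with voom (8.34%), 1 with DESeq2 (5.21%), 0 to 2 left out (0% to 7.33%). PDS against Phen-DC3 controls lower, 2: 1 with no filter (2.3%), 0 with length correction (2.02%) and with these groups alone (0.00756%). It was 0 to 3 left out (0% to 11.6%). The other control comparisons kept counts within 1.5 times. The cause was not tested.

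The replicate number as a block gave 0 for Phen-DC3 lower (0% of all genes) and 1 for Braco-19 higher (0.00705%). It gave 0 for PDS minus Braco-19 lower (1.95%) and 0 for Phen-DC3 minus Braco-19 lower (0%). The count was 1 for PDS against Phen-DC3 controls lower (3.13%). With length correction the replicate block gave 12 for PDS minus Phen-DC3 higher (2.71%), 0 for Phen-DC3 lower (0%) and 1 for Braco-19 higher (0.0212%). The other counts just named were 0, where 3.39%, 0% and 1.57% of all genes were called, in that order. Same-numbered libraries of a compound and its controls correlated at -0.25 to 0.07. Such low values show no pairing by number and cannot exclude it. In the Braco-19 arm each library correlated best with its own number. For Braco-19 replicate 3 that value was 0.009, the same to 3 decimals as with control replicate 1.

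Directions turned against 9 pooled controls for Herc6 (-0.35), Helz2 (-0.43) and Parp14 (-0.001) under PDS and Irf7 (-0.023) under Braco-19, and with voom for Rsad2 under Phen-DC3 (1.18). With length correction they turned for Parp14 (0.38; 0.38 with the block), Dtx3l (0.46; 0.47) and Xaf1 (-0.017; -0.016) in PDS against Braco-19 controls and Parp14 (0.37; 0.37) in Phen-DC3 against Braco-19 controls. Of the values of single members, 4705 kept direction and call, 302 lost and 82 gained a call, and 13 reversed. Of the 19 PDS calls, 6 held under every alternative other than left-out libraries, 11 under every left-out library and 5 under both. Depth limits Oas1a, Oas2, Mx1 and Bst2.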

Other observations

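Members that PDS raised were counted in the other arms. Of the 19, 12 had a positive and 7 a negative change under Phen-DC3, with 1 called, Helz2, lower (median 0.11). Of all genes 48.7% had a positive change there and 5.82% were called lower. All 19 were positive under Braco-19, with 2 called higher, Irf7 and Apol9a (median 0.54). Of all genes 50.5% were positive there and 0.169% were called higher. Shares among all the genes that PDS raised were not counted. Oas1a, tested through the PDS libraries, is among the 19. The control groups of the arms are separate libraries. The calls still share samples, since 1 model of all 18 libraries gave the spread.

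Over the 35 tested members, 17 had positive changes under PDS and Braco-19 with a negative change under Phen-DC3, and 15 were positive under all 3 compounds. The shares of all genes with these joint patterns were not counted. Of all genes 52.8% had a positive change under PDS, 48.7% under Phen-DC3 and 50.5% under Braco-19. PDS gave the larger log2 change of PDS and Braco-19 in 22 of 35, where 51.6% of all genes had a positive difference. Oas1a and Mx1, tested through the PDS libraries, are among the 35.

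Within the PDS group, replicate 1 held the lowest value of 21 of 35 members and replicate 3 the highest of 18. Within Braco-19, replicate 2 held the highest value of 22 members, and within Phen-DC3 replicate 1 of 20.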
